A study of Mus musculus with 25 samples.

Results

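Transcript levels of 10 marker genes of IL-17-producing invariant natural killer T (NKT17) cells, Il23r, Il1r1, Sdc1, Blk, Tmem176a, Tmem176b, Cd163l1, Sox13, Aqp3 and Serpinb1a, were followed on 25 arrays. The cells were invariant natural killer T (iNKT) cells that had been sorted out of the thymus of mice. The members were taken by gene symbol from the array's probe annotation, and each was represented by 1 transcript cluster of the 22206 tested. The arrays were Clariom S whole-transcript arrays, and levels are log2 RMA values, so that a difference of 1 is a doubling of signal. All mice carried the C57BL/6 strain label. The groups were cells lacking both Mst1 and Mst2 (dKOMst) at S3 (1 array) and S1_S2 (2 arrays), cells lacking Mst1 alone (Mst1KO) at S3 (5 arrays) and S1_S2 (4 arrays), and wild-type (WT) cells at S3 (7 arrays) and S1_S2 (6 arrays). Mst1 and Mst2 are the kinases at the head of the Hippo pathway. By the sort, S3 cells carried CD44 and NK1.1, and S1_S2 cells were the NK1.1-negative stages 1 and 2 together. The labels give no age or sex and do not say in which cells the genes were deleted, whether animals were pooled, or whether each array had an animal of its own. A p-value therefore reflects how far arrays of a group scatter, and that scatter may be technical.

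NKT17 cells are a branch of thymic iNKT cells that, like IL-17-producing γδ T cells, is poised to secrete IL-17 when IL-23 and IL-1 bind their receptors. In C57BL/6 mice they usually lack NK1.1 and form a minority of thymic iNKT cells, so their genes are read here against a background of NKT1 and NKT2 cells. In such bulk samples, fewer NKT17 cells and less RNA of a gene per cell cannot be told apart. Il23r and Il1r1 encode the receptors for those cytokines. Sdc1 (syndecan-1, a heparan sulphate proteoglycan), Cd163l1 (a scavenger receptor also found on γδ T cells), Tmem176a and Tmem176b (related membrane-spanning proteins) and Aqp3 (a water and glycerol channel) lie in membranes. Blk is a Src-family kinase best known from B cells, Sox13 a transcription factor of the γδ T lineage, and Serpinb1a an intracellular inhibitor of serine proteases.

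The promoter windows of RefSeq (build GRCm38.p6, 250 bases before and 50 bases after the annotated start) matched 8 of the 10 members with 12 windows. Il23r is shown because it held the widest range of values among the members, and Tmem176a and Tmem176b because they are divergent neighbours whose levels are compared below. In the Il23r window (chr6:67491806-67492105, minus strand) capitals mark AGGTCA, the core hexamer bound by many nuclear receptors, on either strand. In the Tmem176a window (chr6:48841406-48841705, plus strand) and the Tmem176b window (chr6:48841325-48841624, minus strand) capitals mark the 219 bases that both share on opposite strands. Both genes have several windows, and this pair was picked because it shares the most bases. The other pairs share 0 to 208.
Il23r: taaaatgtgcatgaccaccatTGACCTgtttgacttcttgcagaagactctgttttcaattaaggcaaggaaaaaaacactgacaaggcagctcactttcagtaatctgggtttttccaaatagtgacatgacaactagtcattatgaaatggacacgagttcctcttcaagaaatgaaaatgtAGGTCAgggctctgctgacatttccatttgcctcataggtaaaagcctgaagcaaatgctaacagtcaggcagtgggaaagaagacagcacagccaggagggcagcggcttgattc
Tmem176a: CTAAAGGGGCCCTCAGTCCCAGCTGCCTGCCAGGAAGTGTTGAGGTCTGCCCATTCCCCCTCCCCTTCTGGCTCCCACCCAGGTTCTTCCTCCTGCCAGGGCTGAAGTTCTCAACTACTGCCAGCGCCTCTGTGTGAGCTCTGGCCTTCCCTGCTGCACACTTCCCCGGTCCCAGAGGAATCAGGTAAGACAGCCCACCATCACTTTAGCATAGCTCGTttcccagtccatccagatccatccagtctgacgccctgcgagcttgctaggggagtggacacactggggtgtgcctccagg
Tmem176b: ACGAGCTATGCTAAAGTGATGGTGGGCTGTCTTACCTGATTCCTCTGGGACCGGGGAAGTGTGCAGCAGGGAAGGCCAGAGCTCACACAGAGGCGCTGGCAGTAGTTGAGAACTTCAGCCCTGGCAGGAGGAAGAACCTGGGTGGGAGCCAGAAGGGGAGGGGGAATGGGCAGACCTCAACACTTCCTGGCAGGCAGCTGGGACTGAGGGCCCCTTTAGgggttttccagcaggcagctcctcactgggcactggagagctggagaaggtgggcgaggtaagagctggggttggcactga
The hexamer began at positions -229 (reverse strand) and -66 (forward strand) from the Il23r start. It was found in 1 of the 12 member windows, against 16.3% of all 32851 windows. The motif TTCNNNGAA, a palindrome of STAT factors searched on both strands, was found in 1 of the 12 windows, that of Sox13, against 8.3% of all windows. These matches describe letters in the windows and were not tied to any measurement of binding.

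All 7 measured genes of an iNKT marker list, among them Cd3e and Zbtb16 (which encodes PLZF), read above their array's negative control median on all 25 arrays, and their mean per array lay between 11.75 and 12.42. All 10 members read above the negative control medians (6.19 to 6.59) on all arrays, except Il23r on 1 WT S3 array. The sample titles carried numbers in 2 separate ranges, here called the first set (16 arrays, every Mst1KO array among them) and the second set (9 arrays, every dKOMst array among them), and both hold WT arrays. The labels name no batch. The set entered the linear model (limma) as a term, and for the members it ranged from -0.06 (Tmem176b) to 0.42 (Il23r), with no adjusted p under 0.05. This term is the same at both stages, and the WT sets differed in opposite directions. On WT S1_S2 arrays the mean of the 10 members was 8.95 to 9.35 in the first set and 9.33 to 9.84 in the second. On WT S3 arrays it was 9.29 to 9.35 in the first set (7.70 on replicate 4) and 8.66 to 8.91 in the second. A term of this kind cannot follow such shifts. Y-linked genes gave signal on all arrays but 4, which were replicates 3 and 4 of Mst1KO at both stages. The number of arrays limits the precision of all values.

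WT S3 replicate 4 stood apart from the other 6 WT S3 arrays in these genes. Il23r read 5.80 on it, under its control median, and 9.57 to 10.58 on the other 6. The value on replicate 4 minus the lowest of the others was -3.77, the deepest such gap of all 22206 clusters. Blk read 6.58 on replicate 4, against 8.38 to 9.09 on the others. Sdc1 (7.02, against 7.93 to 9.89), Serpinb1a (7.10, against 7.99 to 9.09) and Il1r1 (7.23, against 7.86 to 9.31) were also lowest there. So were Tmem176a (8.60, against 9.11 to 10.16) and Tmem176b (8.87, against 9.17 to 10.71), by smaller gaps. Cd163l1 (8.39), Sox13 (8.37) and Aqp3 (9.05) lay inside the range of the other WT S3 arrays. In all, 7 of 10 members were lowest on replicate 4, as were 14.3% of all clusters. A gap of at least 1 was seen for 2 members and for 0.149% of clusters. By title number, WT S1_S2 replicate 3 runs parallel to WT S3 replicate 4, though the labels state no pairing. It was the lowest WT S1_S2 array for Il23r (9.93, next 10.06), Il1r1 (8.99, next 9.12) and Sdc1 (8.44, next 8.68). Blk (8.75, next 8.94), Tmem176a (9.18, next 9.37), Serpinb1a (7.97, next 8.66) and Sox13 (8.18, next 8.40) were also lowest there. Tmem176b, Cd163l1 and Aqp3 were not. The share of all clusters lowest on it was not counted.

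Other genes with deep gaps on replicate 4 were Emb (embigin, a surface glycoprotein; 5.13, against 8.49 to 9.59), Laptm4b (a lysosomal membrane protein; 7.94, against 10.73 to 11.20) and Cpe (carboxypeptidase E; 5.82, against 8.33 to 9.94), named after their values were seen. Ccr6, the chemokine receptor carried by most NKT17 cells, read 6.49 there and 7.41 to 8.95 on the others. Il17re, a receptor for IL-17C, read 6.80, against 7.56 to 8.72. Not all such genes were low there. Il17f (6.91, against 6.50 to 7.19), Il7r (12.10, against 11.99 to 12.30) and Rora (9.43, against 8.76 to 9.51) lay inside the range of the others. Il17a (8.04) lay above it (7.49 to 8.03). The mean of the 21 measured genes of the NKT17-associated list used below was 8.48, against 8.81 to 9.21. The iNKT marker mean, 11.75, was also the lowest of the 7 WT S3 arrays. Each limma result was also computed without this array, and the values it moves most are given beside the results.

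**Figure D1:**
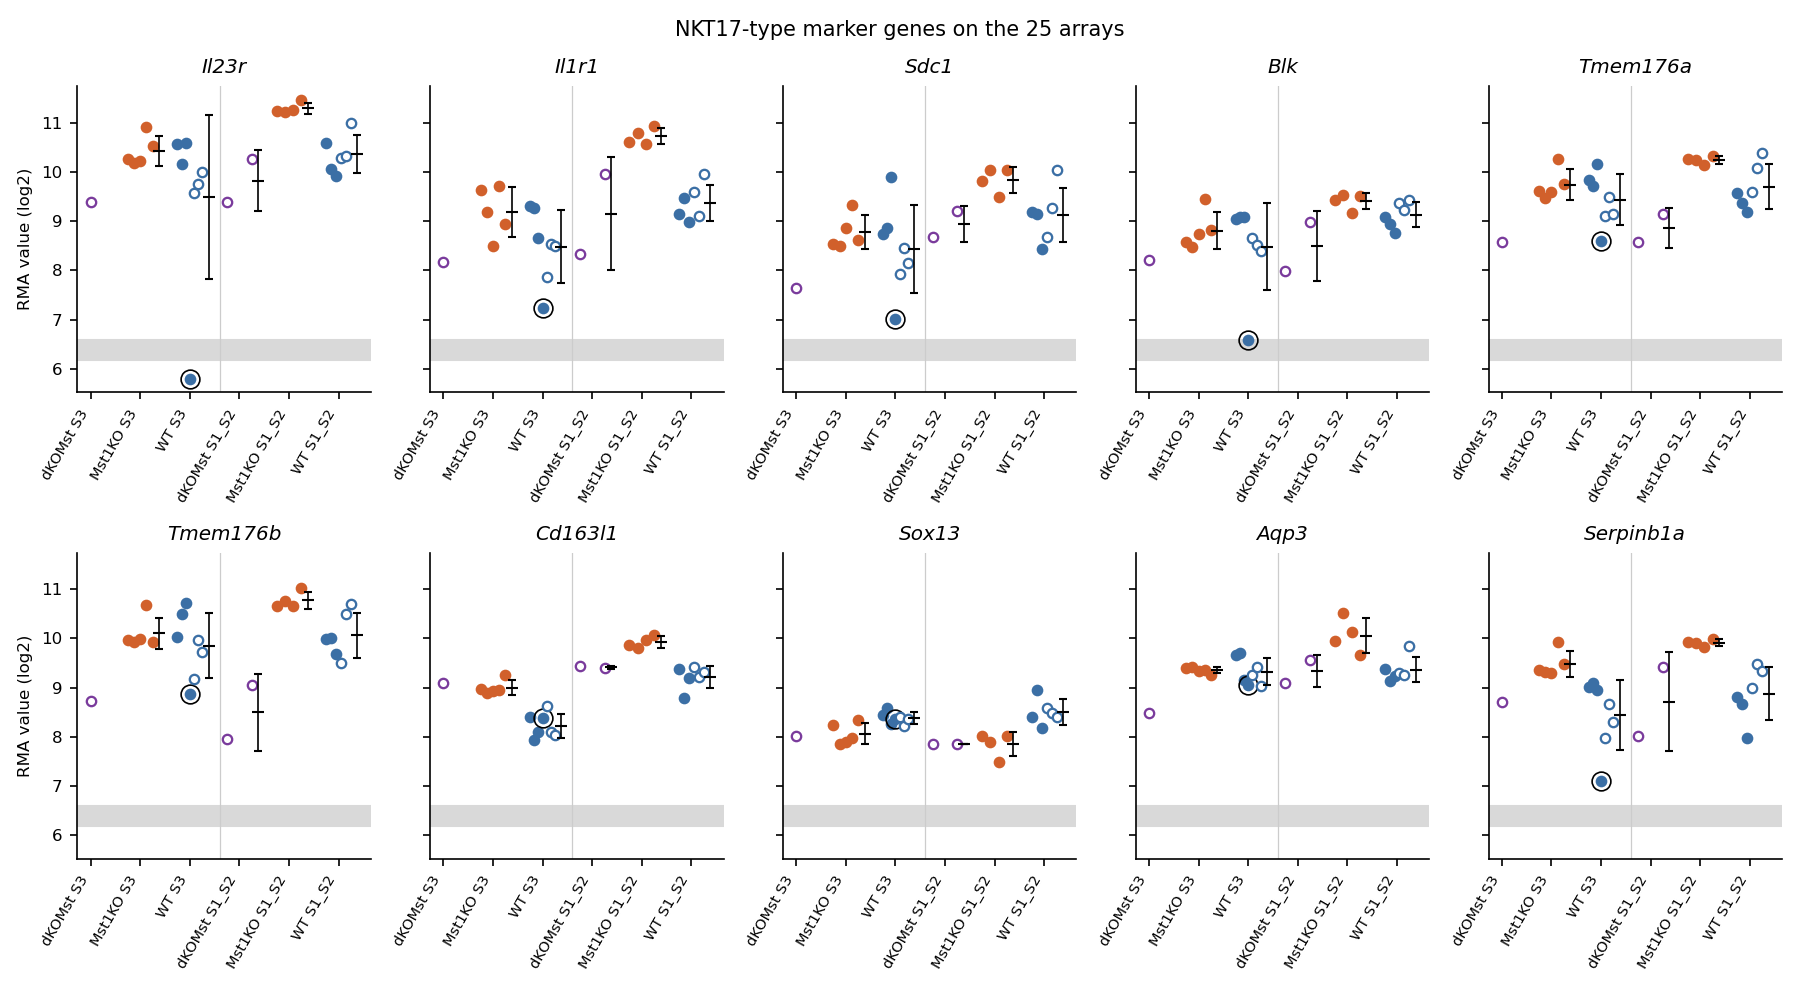
Log2 RMA value of each member (1 panel each) on the 25 arrays by group, with mean and SD bars for groups of 2 or more. Filled points are the first set and open points the second, the grey band spans the negative control medians (6.19 to 6.59), and a ring marks WT S3 replicate 4, on which Il23r read 5.80. Cd163l1 separates Mst1KO from WT at both stages.

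**Figure D2:**
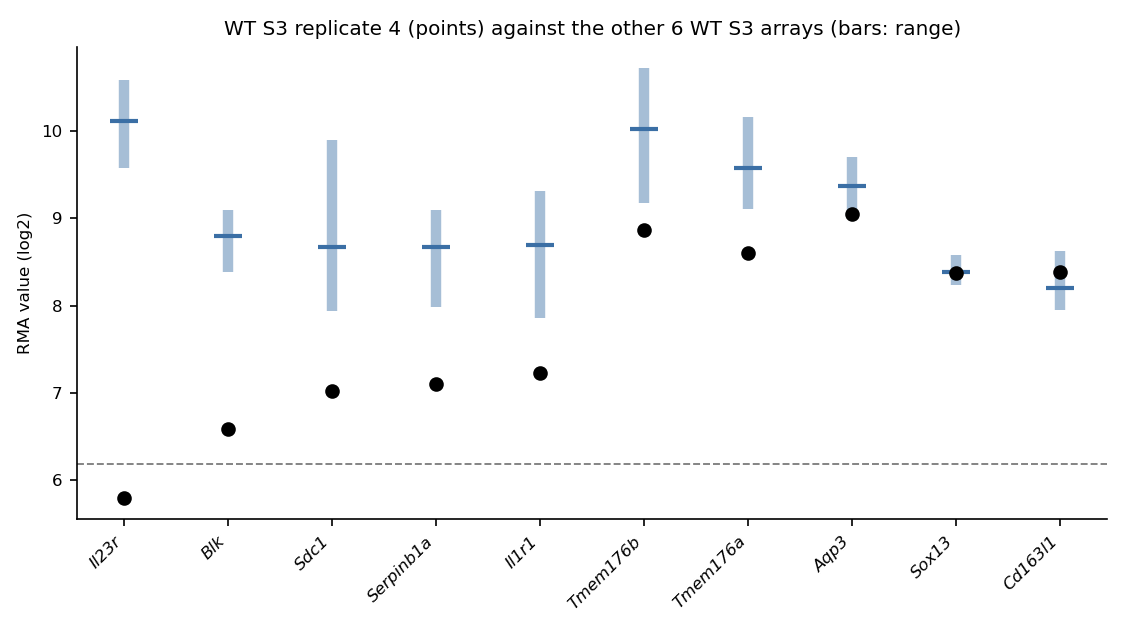
WT S3 replicate 4 (points) against the range (bars) and mean (dashes) of the other 6 WT S3 arrays, in log2 RMA values, for the 10 members ordered by their difference from that mean. The dashed line is the array's negative control median. Of the members, 7 lie below the other arrays, and Cd163l1, Sox13 and Aqp3 lie within them.

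Loss of Mst1 was set against WT within each stage. In S1_S2 cells, Cd163l1 rose and Sox13 fell, and the other 8 members, all with positive differences, did not pass the test over all clusters. Cd163l1 read 9.86, 9.80, 9.97 and 10.07 on the 4 Mst1KO arrays, against a lowest of 8.80, a median of 9.26 and a highest of 9.41 on the 6 WT arrays. The groups did not overlap, and the difference was 0.77 ± 0.14 (SE; limma, adjusted p = 0.0059). Sox13 read 8.02, 7.90, 7.496 and 8.01 on Mst1KO arrays, against 8.18, 8.45 and 8.95 (lowest, median, highest) on WT arrays. Its groups did not overlap either, and it fell by 0.67 ± 0.14 on the log2 scale (limma adjusted p = 0.0274). The call for Sox13 was lost without WT S1_S2 replicate 2 (limma adjusted p = 0.103), Mst1KO S1_S2 replicate 2 (0.0686) or Mst1KO S1_S2 replicate 3 (0.12), and within the first set alone (0.198). Among arrays with Y-linked signal, which leaves 2 Mst1KO arrays at S1_S2, neither Cd163l1 (0.67, limma adjusted p = 0.246) nor Sox13 (-0.57, 0.344) passed. The 1 member called higher compares with 0.329% of all clusters, and the 1 called lower with 0.194%.

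Both cytokine receptor genes had their highest group means in Mst1KO S1_S2. Il1r1 read 10.62, 10.80, 10.58 and 10.94 on Mst1KO arrays, against 8.99, 9.30 and 9.96 (lowest, median, highest) on WT arrays. No Mst1KO array overlapped a WT array, and the difference was 1.36 ± 0.38 (limma adjusted p = 0.135). Il23r read 11.24, 11.21, 11.27 and 11.46 on Mst1KO arrays, against 9.93, 10.30 and 10.996 on WT arrays. These did not overlap, and the difference was 1.14 ± 0.62 (limma adjusted p = 0.666). It carries a spread shared with all groups and a set term estimated from the WT arrays of both stages. WT S3 replicate 4 enters both. Without that array the difference was 0.85 ± 0.24 (limma adjusted p = 0.129).

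Serpinb1a, the protease inhibitor, read 9.93, 9.91, 9.83 and 9.99 on Mst1KO S1_S2 arrays, against 7.97, 8.91 and 9.47 (lowest, median, highest) on WT arrays. The groups did not overlap, and the difference was 1.16 ± 0.35 (limma adjusted p = 0.194). Aqp3, the water channel, read 9.94, 10.51, 10.12 and 9.66 on Mst1KO arrays, against 9.14, 9.28 and 9.85 on WT arrays. WT replicate 6, the highest, lay above Mst1KO replicate 4, and the difference was 0.71 ± 0.18 (limma adjusted p = 0.0777). It passed without WT S1_S2 replicate 6 (limma adjusted p = 0.026), without Mst1KO S1_S2 replicate 4 (0.0418) and without WT S3 replicate 2 (0.0445).

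Differences for the remaining 4 were 0.69 ± 0.40 for Sdc1, 0.69 ± 0.33 for Tmem176b, 0.61 ± 0.27 for Tmem176a and 0.39 ± 0.37 for Blk, with limma adjusted p-values from 0.504 to 0.867. The median over the 10 members was 0.70, against -0.01 over all clusters. Against the 3 WT S1_S2 arrays of the first set, which holds all Mst1KO arrays, 9 members lay above every WT array (3.98% of all clusters did) and Sox13 lay below (4.3%). Against all 6 WT arrays, 4 members lay above (1.5% of clusters) and 1 below (1.08%). An unadjusted p under 0.05 was seen for 7 members and 8.65% of clusters. A fit of the compared groups alone, whose spread leaves out the S3 and dKOMst arrays, called 4 members higher, Il1r1 (limma adjusted p = 0.0061), Serpinb1a (0.007), Cd163l1 and Il23r (0.038), and none lower. That fit called 56 of the 22206 clusters, higher or lower.

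At S3, Cd163l1 and Serpinb1a rose with Mst1 loss, and the others did not pass. Cd163l1 read 8.98, 8.89, 8.92, 8.94 and 9.27 on the 5 Mst1KO arrays, against 7.95, 8.10 and 8.62 (lowest, median, highest) on the 7 WT arrays. The groups did not overlap, with a difference of 0.82 ± 0.12 (limma adjusted p = 0.000322). Serpinb1a read 9.35, 9.31, 9.31, 9.93 and 9.49 on Mst1KO arrays, against 7.10, 8.66 and 9.09 on WT arrays. Its groups did not overlap, as for 1.46% of clusters with Mst1KO higher, and the difference was 1.14 ± 0.32 (limma adjusted p = 0.0341). That call was lost without WT S3 replicate 4 (0.83 ± 0.28, limma adjusted p = 0.0855), without Mst1KO S3 replicate 2 (0.055), replicate 4 (0.0836) or replicate 5 (0.0684), within the first set (0.107) and among arrays with Y-linked signal (0.159). Members called higher were 2 of 10, against 3.73% of clusters (without WT S3 replicate 4, 1 of 10 against 3.2%).

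Most other S3 differences were smaller without WT S3 replicate 4. Il23r differed by 1.11 ± 0.56 with it and 0.24 ± 0.23 without it, and Il1r1 by 0.71 ± 0.34 and 0.40 ± 0.31. Without it, Sdc1 (-0.04 ± 0.31), Blk (-0.02 ± 0.21), Tmem176b (-0.03 ± 0.28) and Aqp3 (-0.03 ± 0.17) had differences near 0. Sox13 differed by -0.33 ± 0.13 (limma adjusted p = 0.113). The median over members was 0.39 with the array and 0.07 without it. None of the 10 differed between stages in the size of the Mst1KO effect by the limma interaction test, at which 0.158% of clusters were called, and 1 had an unadjusted p under 0.05, as 9.49% of clusters did. That was Aqp3, whose effect at S3 minus that at S1_S2 was -0.67 ± 0.22 (limma adjusted p = 0.316). For Cd163l1, whose difference was positive at both stages, the effects differed by 0.05 (95% interval -0.29 to 0.40).

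**Figure D3:**
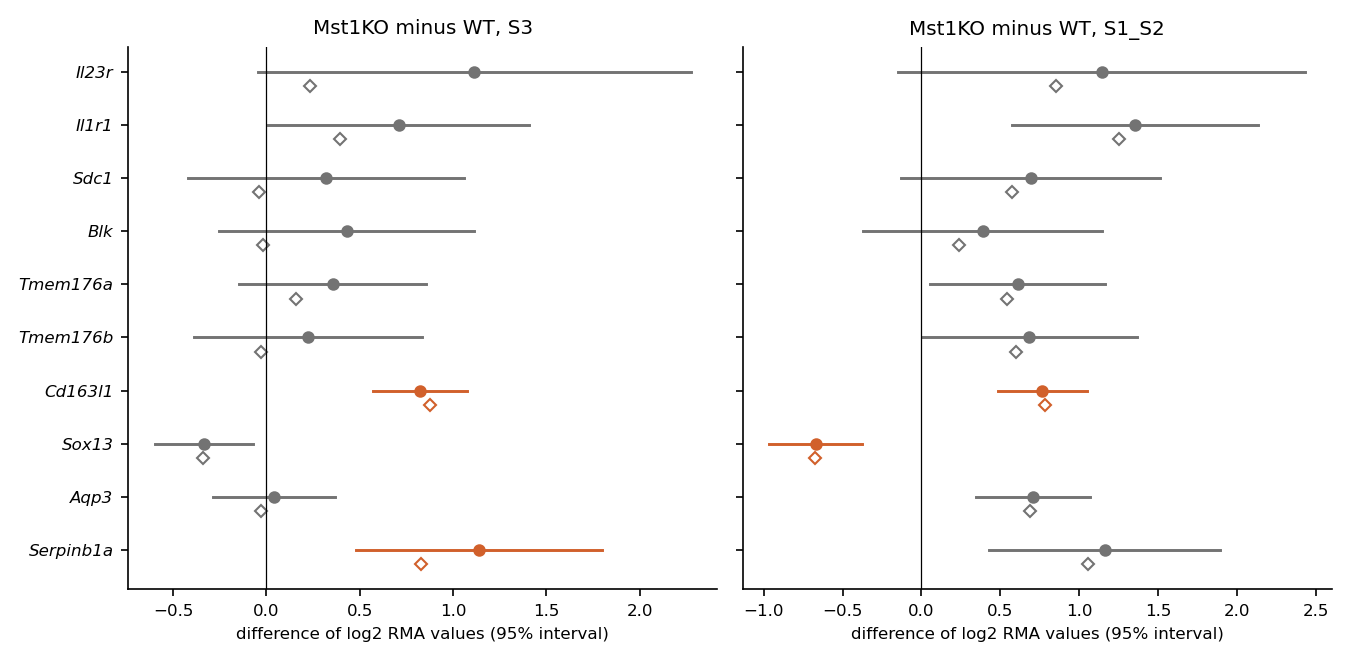
Mst1KO minus WT difference of each member at S3 (left) and S1_S2 (right), as limma estimates on the log2 scale with 95% intervals. Orange marks members with an adjusted p under 0.05, and diamonds give the estimate without WT S3 replicate 4. Cd163l1 was higher by 0.82 at S3 and by 0.77 at S1_S2, and the Il23r estimate at S3 moves from 1.11 to 0.24 without the array.

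Stage was compared within each genotype. In WT cells, Cd163l1 and Il1r1 fell at S3, and no member rose. Cd163l1 read 7.95, 8.10 and 8.62 (lowest, median, highest) on WT S3 arrays, against 8.80, 9.26 and 9.41 on WT S1_S2 arrays. It fell by 0.98 ± 0.11 (limma adjusted p = 2.9e-07), and the groups did not overlap, as for 3.42% of clusters in this direction (3.71% without WT S3 replicate 4). Il1r1 read 7.23, 8.54 and 9.31 on WT S3 arrays, against 8.99, 9.30 and 9.96 on WT S1_S2 arrays. The groups overlapped, and it fell by 0.89 ± 0.30 (limma adjusted p = 0.0404). This call was lost without WT S3 replicate 4 (0.0852), 5 (0.103), 6 (0.06) or 7 (0.0624) and without WT S1_S2 replicate 2 (0.0731), 4 (0.0796) or 6 (0.104), and within either set. Members called lower were 2 of 10, against 8.75% of clusters (without WT S3 replicate 4, 1 of 10 against 8.35%), and 8.18% of clusters were called higher. The median over members was -0.53, and -0.23 without WT S3 replicate 4. For Il23r the stage difference was -0.84 ± 0.49, and -0.26 ± 0.19 without that array. These values pool both sets, which differed. In the second set the mean of the 10 members was 8.66 to 8.91 at S3, against 9.33 to 9.84 at S1_S2. In the first set, without replicate 4, it was 9.29 to 9.35 at S3, inside the 8.95 to 9.35 at S1_S2. Il23r likewise read 9.57 to 9.99 against 10.28 to 10.996 in the second set. In the first, without replicate 4, it read 10.16 to 10.58 against 9.93 to 10.60.

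In Mst1KO cells, Il1r1, Cd163l1 and Aqp3 fell at S3. Il1r1 read 9.63, 9.18, 8.49, 9.71 and 8.95 on Mst1KO S3 arrays, against 10.62, 10.80, 10.58 and 10.94 on Mst1KO S1_S2 arrays. It fell by 1.54 ± 0.36 (limma adjusted p = 0.0055), the largest stage difference among the members. Among arrays with Y-linked signal it did not pass (limma adjusted p = 0.128). Cd163l1 fell by 0.93 ± 0.13 (limma adjusted p = 2.17e-05). Aqp3 read 9.40, 9.42, 9.34, 9.35 and 9.25 on Mst1KO S3 arrays, against the 9.66 to 10.51 given above at S1_S2, and fell by 0.71 ± 0.17 (limma adjusted p = 0.0064). These 3 and also Il23r and Sdc1 did not overlap between stages, 5 of 10 members against 7.09% of clusters. By the test, 3 of 10 were called lower, against 4.62% of clusters. Without WT S3 replicate 4, which enters only through the shared spread, 5 of 10 were called (4.9% of clusters), with Il23r (-0.87 ± 0.23, limma adjusted p = 0.0133) and Sdc1 (-1.07 ± 0.31, 0.0269) added. Sdc1 was also called without WT S3 replicate 3 (limma adjusted p = 0.0273). Sox13 was the member with a positive difference, 0.21 ± 0.13.

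Among the Mst1KO S3 arrays, replicate 4 was the highest for Il23r (10.91), Il1r1 (9.71), Sdc1 (9.34), Blk (9.46), Tmem176a (10.27), Tmem176b (10.68) and Serpinb1a (9.93). It lay within the other 4 for Cd163l1 (8.94), Sox13 (7.97) and Aqp3 (9.35). Like replicate 3, it gave no Y-linked signal. The share of all clusters that were highest on it was not counted. Ccr6 was highest on the same array, at 10.19, against 9.30 to 9.46 on the others.

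The dKOMst S1_S2 arrays were compared with WT. No member passed the limma test, at which 0.923% of clusters were called (higher or lower), and 3 had an unadjusted p under 0.05, as 10.6% of clusters did. These were the members whose dKOMst arrays both lay below all 6 WT arrays, which 6.68% of clusters did. Tmem176b read 7.95 and 9.06 on dKOMst arrays, against 9.50, 9.997 and 10.71 (lowest, median, highest) on WT arrays, a difference of -1.53 ± 0.40 (limma adjusted p = 0.0735). Tmem176a read 8.58 and 9.15, against 9.18, 9.58 and 10.39 on WT arrays, a difference of -0.90 ± 0.33 (limma adjusted p = 0.266). Sox13 read 7.86 on both dKOMst arrays, against 8.18 to 8.95 on WT arrays, a difference of -0.62 ± 0.17 (limma adjusted p = 0.0995). Tmem176b passed without WT S3 replicate 3 (0.0393), and Sox13 without WT S1_S2 replicate 3 (0.0495).

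The 2 dKOMst S1_S2 arrays differed from each other for most members. Il1r1 read 8.34 on replicate 1 and 9.96 on replicate 2, Serpinb1a 8.01 and 9.42, and Blk 7.99 and 8.99. Replicate 1 was the lower in these and in Il23r, Sdc1, Tmem176a, Tmem176b and Aqp3. Cd163l1 read 9.44 and 9.39 and did not show this gap. The difference of Cd163l1 from WT was 0.14 ± 0.17, with a 95% interval from -0.20 to 0.49.

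dKOMst and Mst1KO S1_S2 arrays lie in different sets, so their comparison rests on the set term, which was estimated from WT arrays. No member passed, with 0.171% of clusters called, and 8 had an unadjusted p under 0.05, as 8.5% of clusters did. Tmem176b had the largest difference, -2.21 ± 0.48 (limma adjusted p = 0.0539). It passed without WT S3 replicate 4 (-2.05 ± 0.43, limma adjusted p = 0.0464), and likewise without WT S3 replicate 2 (0.0435), 3 (0.0236) or 5 (0.037), WT S1_S2 replicate 4 (0.0445) or dKOMst S1_S2 replicate 2 (0.0333). Its Mst1KO arrays read 10.66, 10.76, 10.67 and 11.03, so that the dKOMst arrays (7.95 and 9.06) lay below WT and the Mst1KO arrays above the first-set WT arrays. All members but Sox13 were lower on both dKOMst arrays than on every Mst1KO array, 9 of 10 against 15% of clusters. Sox13 was alike in both, with a difference of 0.05 and a 95% interval from -0.38 to 0.48.

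The single dKOMst S3 array was set beside the 3 WT S3 arrays of its set, with no test. Cd163l1 read 9.10, against 8.03 to 8.62 on WT arrays, and Serpinb1a 8.71, against 7.99 to 8.66. These 2 of 10 members lay above all 3 WT arrays, as 26.6% of clusters did. Il1r1 (8.17) lay within the WT range (7.86 to 8.54). The other 7 members lay below all 3 WT arrays, which 26% of clusters did. The lowest against WT were Tmem176b (8.73, against 9.17 to 9.96), Aqp3 (8.48, against 9.03 to 9.41) and Tmem176a (8.58, against 9.11 to 9.50). The median difference over members was -0.35.

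By group, Cd163l1 averaged 9.93 ± 0.12 in Mst1KO S1_S2 (SD, n = 4), 9.42 ± 0.03 in dKOMst S1_S2 (n = 2), 9.22 ± 0.22 in WT S1_S2 (n = 6), 9.0 ± 0.15 in Mst1KO S3 (n = 5) and 8.23 ± 0.25 in WT S3 (n = 7), and read 9.10 on the dKOMst S3 array. The means of dKOMst S1_S2 and Mst1KO S3 and the dKOMst S3 value all lie within 1 SD of the WT S1_S2 mean. For Il23r the order was Mst1KO S1_S2 (11.30 ± 0.11), Mst1KO S3 (10.42 ± 0.31), WT S1_S2 (10.36 ± 0.39), dKOMst S1_S2 (9.82 ± 0.62), WT S3 (9.49 ± 1.67, and 10.11 ± 0.42 without replicate 4) and dKOMst S3 (9.39), with only the gap below Mst1KO S1_S2 beyond the SDs. Il1r1 ran in a like order, from 10.73 ± 0.17 in Mst1KO S1_S2 to 8.48 ± 0.74 in WT S3 and 8.17 on the dKOMst S3 array. Sox13 ran from 8.50 ± 0.26 in WT S1_S2 and 8.38 ± 0.12 in WT S3 to 8.06 ± 0.22 in Mst1KO S3 and 7.86 ± 0.25 in Mst1KO S1_S2, so that its WT means were above its Mst1KO means at both stages.

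Other NKT17-associated genes came from a list of 24, of which 21 were measured. With Mst1 loss, 1 was called higher and none lower at S1_S2, and 3 were called higher and 2 lower at S3. Over all clusters, 0.329% were called higher at S1_S2, and 3.73% higher and 2.64% lower at S3. Without WT S3 replicate 4 the list had 2 called higher at S1_S2 (0.423% of clusters), and 3 higher and 4 lower at S3 (3.2% and 1.92% of clusters). Ccr6 read 9.30 to 10.19 on Mst1KO S3 arrays (median 9.41), against 6.49 to 8.95 (median 8.42) on WT S3 arrays, and rose by 1.63 ± 0.38 (limma adjusted p = 0.0147). At S1_S2 it read 9.98 to 10.31 on Mst1KO arrays, against 7.36 to 9.09 on WT arrays, without overlap, and differed by 1.76 ± 0.43 (limma adjusted p = 0.0702). Il18r1, a subunit of the IL-18 receptor, rose by 0.46 ± 0.10 at S1_S2 and by 0.44 ± 0.09 at S3 (limma adjusted p = 0.0297 and 0.0043). Itgb3 (integrin β3) rose by 0.82 ± 0.18 at S3, and Itgae (the αE integrin CD103) fell by 0.57 ± 0.14 there. The Mst1KO effect on Itgae differed between stages by -1.002 ± 0.19 (limma adjusted p = 0.0276).

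Il17a, Il17f and Il22, the cytokine genes on the list, gave no calls in any of the 7 limma comparisons. Il17a medians lay between 7.76 in Mst1KO S3 and 8.10 in WT S1_S2, and those of Il17f between 6.66 and 7.01. Mst1KO and WT differed in Il17a by -0.04 ± 0.17 at S1_S2 and by -0.13 ± 0.15 at S3. Il22, singled out after its values were seen, read 8.17 to 8.87 on Mst1KO S1_S2 arrays, against 6.99 to 7.90 on WT S1_S2 arrays, without overlap, a difference of 1.002 ± 0.28 (limma adjusted p = 0.14). At S3 it read 7.53 to 8.65 on Mst1KO arrays, against 6.74 to 8.27 on WT arrays, a difference of 0.70 ± 0.25 (limma adjusted p = 0.0957, and 0.52 with adjusted p = 0.229 without WT S3 replicate 4). Between stages in WT cells, 4 list genes were called higher and 9 lower (8.18% and 8.75% of clusters), and 3 and 7 without WT S3 replicate 4 (7.76% and 8.35% of clusters). The largest were Emb (-2.18 ± 0.46, and -1.63 without WT S3 replicate 4), Itgb3 (-1.93 ± 0.16) and Rora (a nuclear receptor gene, -1.51 ± 0.12), with Ahr higher (1.12 ± 0.15). In Mst1KO cells none was called higher and 8 lower, against 4.62% of clusters lower, and 9 lower without WT S3 replicate 4. Pxdc1 (-1.63 ± 0.46), Il17re (-1.53 ± 0.31), Rora (-1.46 ± 0.15) and Itgb3 (-1.26 ± 0.19) were among the largest. The Ramp1 mean fell about as far as that of Itgb3, from 11.30 in Mst1KO S1_S2 to 10.04 in Mst1KO S3. In dKOMst against WT S1_S2, Podnl1 (-1.19 ± 0.17) and Itgae (-0.83 ± 0.19) were called lower (0.369% of clusters were), with 3 lower without WT S3 replicate 4 (0.392% of clusters), and against Mst1KO only Itgae was called (-1.26 ± 0.22).

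Markers of other cells were read beside the members. Because Blk and Sdc1 are also genes of B and plasma cells, 8 measured genes of those cells were summed up, and their mean per array lay between 5.87 and 6.47, near the control level, with 2 to 5 of 8 above control. None was called with loss of Mst1 or of both kinases. Myeloid markers averaged 6.12 to 6.61 per array, and S100a9 was called lower in Mst1KO S3 (-0.58 ± 0.17), while Lyz2 (0.70 ± 0.16) and Itgam (0.93 ± 0.18) were called higher in dKOMst S1_S2 than in WT. Of 12 γδ T cell genes only 5830411N06Rik was measured. It read 8.27 and 9.01 on dKOMst S1_S2 arrays, against 9.33 to 10.19 on WT arrays, and was called lower there (-1.28 ± 0.24), and with Mst1 loss it was not called at either stage. Of 6 measured double-positive thymocyte genes, Cd8b1 was called higher in Mst1KO S3 (0.73 ± 0.18). Ncr1, the only gene called of 4 innate lymphoid genes, fell there by 0.99 ± 0.29, a call that was lost without WT S3 replicate 4. No gene of thymic epithelium (6 measured) and not Alas2, the 1 measured of the erythroid list, was called between genotypes. Of 7 NKT2 genes, Il4 (-0.78 ± 0.13) and Izumo1r (-0.63 ± 0.09) fell in Mst1KO S1_S2 cells and Il4, Il13 and Izumo1r in Mst1KO S3 cells. Of 8 NKT1 genes only Ifng rose with Mst1 loss (1.48 ± 0.28 at S1_S2 and 1.07 ± 0.26 at S3). In dKOMst S1_S2 cells, Il4 (-0.90 ± 0.15) and Klrb1c, which encodes NK1.1 (-1.18 ± 0.25), were called lower than in WT. Their part in the values of the members was not tested.

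How the members varied together was measured within each stage, on deviations from the mean of each group and set, so that differences between groups cannot enter. Of 45 pairs at S3 (13 arrays, with the lone dKOMst array at 0 by construction), 34 had a positive Pearson r, the median r was 0.61, and 6 passed an exact permutation test within cells (17280 permutations, two-sided, Benjamini-Hochberg adjusted over 45 pairs). These joined Tmem176a with Tmem176b, Sdc1 with Tmem176a and with Tmem176b, Il23r with Tmem176a, Il1r1 with Serpinb1a and Tmem176b with Serpinb1a, with r from 0.88 to 0.95 and adjusted exact p from 0.0104 to 0.0482. For the same 6 pairs, Spearman's rho ran from 0.80 to 0.93 with adjusted exact permutation p from 0.0182 to 0.0649, and r without the 2 farthest arrays from 0.64 to 0.90. Unadjusted, 18 pairs had an exact p under 0.05. For comparison, the median r of a member with all other clusters at S3 ran from -0.04 (Il23r) to -0.01 (Tmem176b). The share of clusters with r over 0.8 ran from 0.158% (Sox13) to 0.973% (Il23r). The permutation test was not run on pairs of other clusters.

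Sdc1 and Tmem176b were the closest by this test, with r = 0.94 (exact p = 0.0002, adjusted 0.0104) and Spearman's rho = 0.93 (exact p = 0.0004, adjusted 0.0182). With the 2 arrays farthest from the median of Sdc1 left out, r was 0.90. The divergent neighbours Tmem176a and Tmem176b, whose promoter windows are printed above, had r = 0.93 (exact p = 0.0036, adjusted 0.0482) and rho = 0.85 (exact p = 0.0076, adjusted 0.0539), and r = 0.78 without the 2 farthest arrays. Among the 22205 other clusters ranked by r with Tmem176a, Sdc1 held rank 1, Serpinb1a rank 3, Tmem176b rank 4 and Blk rank 5. Without WT S3 replicate 4 these ranks were 37 for Sdc1, 153 for Serpinb1a, 109 for Tmem176b and 170 for Blk. Cd163l1 and Sox13 did not follow the others. Their r with the other 8 members ranged from -0.62 to 0.22, and Cd163l1 with Tmem176b had r = -0.62 (exact p = 0.0661, adjusted 0.157) and rho = -0.68 (exact p = 0.0378, adjusted 0.0895).

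WT S3 replicate 4 carried much of this relation. Without it the median r was 0.20 and 1 pair passed, Sdc1 with Tmem176b (r = 0.82, exact p = 0.000926, adjusted 0.0417). Without Mst1KO S3 replicate 4 the median r was 0.60 and no pair passed. Counts without 1 other array were 1 (Mst1KO S3 replicate 1 or 2), 2 (Mst1KO S3 replicate 3, or WT S3 replicate 3, 6 or 7), 3 (WT S3 replicate 1), 4 (Mst1KO S3 replicate 5), 5 (WT S3 replicate 2), 6 (the dKOMst array) and 8 (WT S3 replicate 5). The SD of deviations at S3 was 1.36 for Il23r, above 99.96% of clusters (median 0.178), and 0.17 for Sox13, above 45.2%.

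At S1_S2 (12 arrays, 1728 permutations), 36 of 45 pairs had a positive r and the median was 0.49. No pair passed the exact permutation test after adjustment, and 11 had an unadjusted exact p under 0.05. The median r of a member with all other clusters ran here from -0.04 (Il1r1) to 0.02 (Cd163l1). The share of clusters with r over 0.8 ran from 0.315% (Tmem176b) to 0.833% (Cd163l1). Tmem176a with Tmem176b had r = 0.94 (exact p = 0.0046, adjusted 0.156) and rho = 0.90 (exact p = 0.0116, adjusted 0.193), and r = 0.90 without the 2 farthest arrays. Tmem176b was the cluster closest to Tmem176a of all 22205 others at this stage. Sdc1 with Tmem176a had r = 0.91 (exact p = 0.0069, adjusted 0.156) and rho = 0.87 (exact p = 0.0174, adjusted 0.193), and r = 0.80 without the 2 farthest arrays. Cd163l1 with Sox13 had the lowest r of the stage, -0.56.

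The clusters most like the mean deviation of the 10 members, by Pearson r and with no test, were Aanat, Herpud1, Ocm, Tdrkh and Slc7a6 at S1_S2 (r from 0.94 to 0.92 over 12 arrays). At S3 they were Laptm4b, Emb, Selenop, Klra6 and Dhx37 (0.98 to 0.94 over 13 arrays). Without WT S3 replicate 4 they were 4930513O06Rik, Akap17b, Klf12, Sln and Rps6ka5 (0.95 to 0.90 over 12 arrays), none of them shared with the list that includes it.

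**Figure D4:**
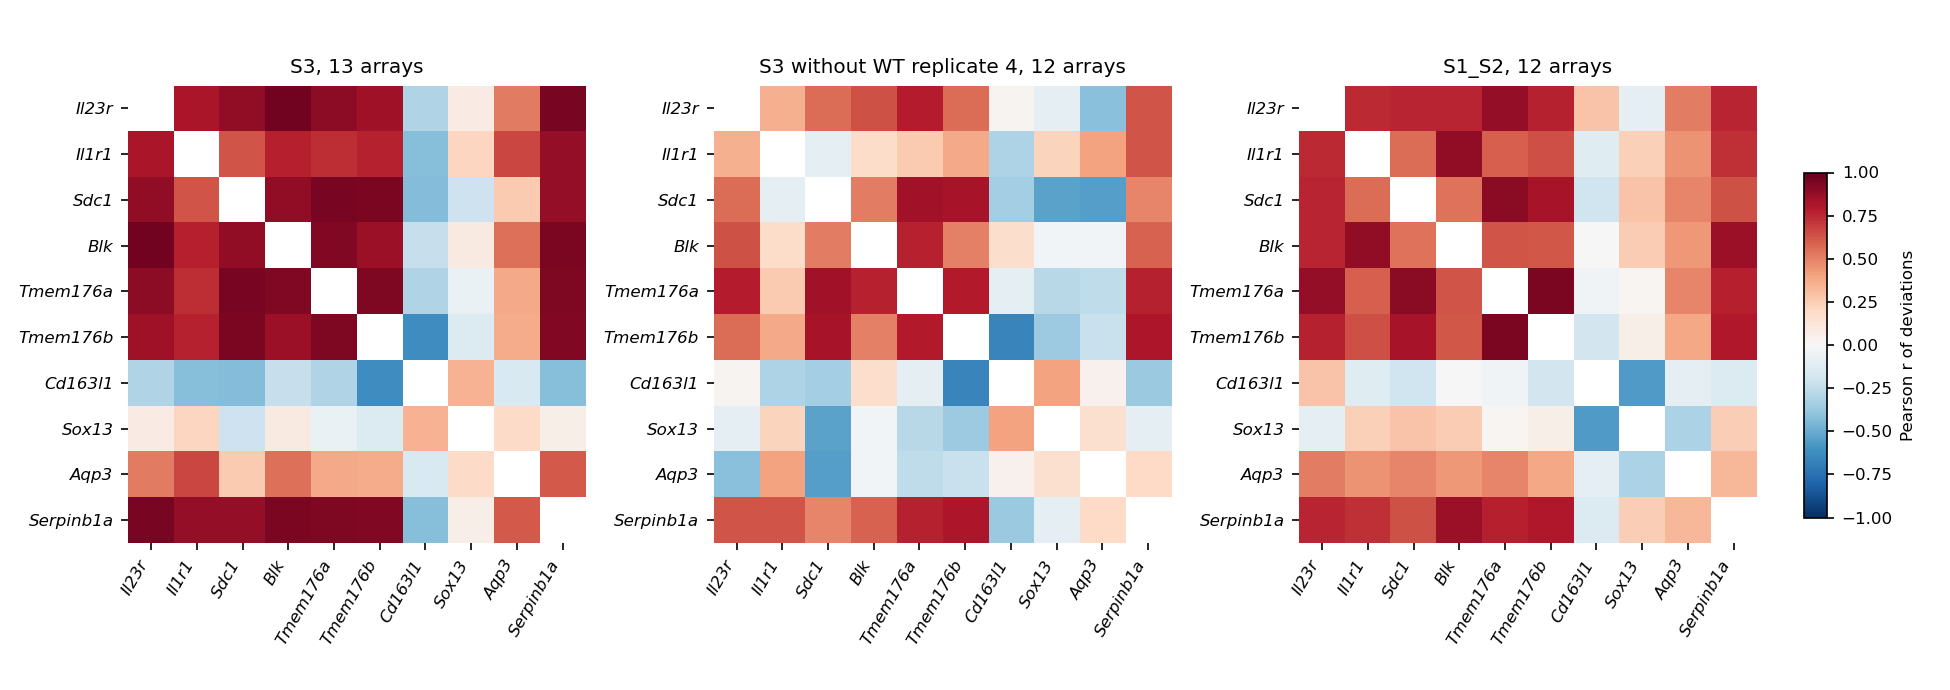
Pearson r between the deviations of each pair of members from the mean of their group and set, at S3 (left, 13 arrays), at S3 without WT S3 replicate 4 (middle, 12 arrays) and at S1_S2 (right, 12 arrays), on a colour scale from -1 to 1. The median r is 0.61, 0.20 and 0.49 in that order, and the Cd163l1 and Sox13 rows are paler than those of the other members in each panel, as is the Aqp3 row without replicate 4.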

How the data were processed

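RNA of sorted thymic iNKT cells was amplified and hybridised to 25 Clariom S arrays, 1 per sample. Deposited values are log2 RMA signals, made by the authors with Affymetrix Expression Console 1.1, per the submitters' processing notes. For the genome build behind the probes, the sources used here give none. Control probe sets (6640 of 28846 items) were left out. limma 3.58.1 in R 4.3.3 fitted 6 group means and the title-number set to 22206 clusters, with Benjamini-Hochberg adjustment over all of them and a threshold of 0.05. Covariation was tested by exact permutation within group and set. Code was tested on simulated data. Named genes are all 10 members, the other NKT17 genes called in a comparison (up to 4 with the largest change) with Il17a, Il17f and Ccr6 in any case, up to 3 called genes of each marker list, and the 5 clusters most like the members. Alternatives changed the set term, the samples in the fit, normalization, variance model and weights, left out each array and, chosen after seeing the data, paired arrays by parallel title numbers. Members and lists were chosen with earlier results of these data known. The other listed genes were not analysed here.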

Additional observations from a re-analysis of the deposited data

Results flagged for a closer look

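Of 40 groups of 4 to 7 arrays examined over the 10 members, 7 (17.5%) held an array whose gap to its nearest neighbour was large against the range of its group. The cutoff is set to flag about 1 in 20 independent groups. These 40 are not independent, since the members share arrays. The share over all clusters was not counted, so no excess over chance was measured. Of the 7 flagged, 2 lay on WT S3 replicate 4, where Il23r read 5.80 (nearest other array 9.57) and Blk 6.58 (nearest 8.38). Mst1KO S3 replicate 4 was set apart as the highest for Tmem176b at 10.68 (nearest 9.99) and for Serpinb1a at 9.93 (nearest 9.49). Cd163l1 was set apart in 2 groups, with Mst1KO S3 replicate 5 the highest at 9.27 (nearest 8.98) and WT S1_S2 replicate 2 the lowest at 8.80 (nearest 9.20). Aqp3 read 9.85 on WT S1_S2 replicate 6, the highest of its group (nearest 9.38).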

How the results depend on the processing

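The labels give no shared replicate numbers and state no pairing, but title numbers run in parallel across stages, S3 numbers being higher by 16 in the first set and by 6 in the second. In all 10 such pairs that could be examined, the S3 partner was the array of its genotype and set whose deviations correlated best with those of the S1_S2 array, with r from 0.0562 to 0.171 (over 0.1 in 4 pairs), a hint from the data and not from the design. In a fit chosen after seeing the data, these pairs as a fixed replicate block gave 7 called members for stage in Mst1KO (4 pairs, with Il23r, Sdc1, Tmem176a and Tmem176b added), 3 for stage in WT (6 pairs, with Sdc1 added) and 0 for the interaction. That fit called 2037, 2854 and 9 of the 22206 clusters, in the same order. As a random replicate block, chosen in the same way, the pairs left the member counts of all 7 comparisons as reported. No estimate that had been called changed sign under any alternative run. Other member counts moved as follows. There were 3 for Mst1KO against WT at S1_S2 with no set term (148 clusters called) or a random block for the set (130 clusters). Stage in WT gave 3 in the second set alone. Stage in Mst1KO gave 2 among arrays with Y-linked signal and 4 with array weights. With no set term, 1 member was called for Mst1KO against WT at S3 (2 as reported), among 731 clusters. That fit also called 2 for dKOMst against WT (265 clusters) and 2 for dKOMst against Mst1KO (195 clusters), with 0 as reported for both. With the set as a random block or with array weights, 1 was called in each of those dKOMst comparisons. With only the compared groups fitted, 4 were called for Mst1KO against WT at S1_S2, 1 at S3, 9 for stage in Mst1KO, 1 for stage in WT and 3 for dKOMst against Mst1KO. No share of all clusters is given here for the 9 and the 3, so they are not read as results about the members. The same holds for any other member count whose fit has no cluster count here or in the next paragraph. Within the first set, 1 was called for each of stage in WT and Mst1KO against WT at S1_S2 and at S3. Repeating quantile normalization left 1 at S3, and trended and robust variance left 1 for stage in WT. Arrays with Y-linked signal gave 1 for stage in WT, 0 for Mst1KO against WT at S1_S2 and 1 at S3. Leaving out each array in turn gave 1 to 3 calls for stage in WT, 1 to 3 for Mst1KO against WT at S1_S2, 1 to 2 at S3, 3 to 5 for stage in Mst1KO, 0 for the interaction, 0 to 1 for dKOMst against WT and 0 to 1 against Mst1KO. The median dKOMst S3 difference ran from -0.42 to -0.34. Correlated pairs at S3 (6 as reported) numbered 20 on deviations from group means alone, 0 among arrays with Y-linked signal, 0 among WT arrays and 0 to 8 leaving out each array, and at S1_S2 stayed at 0. The causes of these changes were not tested.

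Over all clusters, 116 were called for Mst1KO against WT at S1_S2, against 56 with only the compared groups, 64 in the first set and 23 among arrays with Y-linked signal. At S3, 1415 were called, against 731 with no set term, 858 with a random block, 679 in the first set, 475 among arrays with Y-linked signal, and a count between 475 and 679 with only the compared groups. Stage in WT called 3760, against 1921 in the first set and 1904 in the second. Stage in Mst1KO called 2266, against 953 among arrays with Y-linked signal. Counting also the fits that leave out 1 array, the interaction called 35 and 0 to 61 under alternatives, dKOMst against WT 205 and 33 to 343, and dKOMst against Mst1KO 38 and 4 to 450. The lowest counts of both dKOMst comparisons came without dKOMst S1_S2 replicate 1. The interaction called 14 without Mst1KO S1_S2 replicate 2 and 61 without WT S1_S2 replicate 3, where dKOMst against Mst1KO called 69. Mst1KO against WT called 66 at S1_S2 without Mst1KO S1_S2 replicate 2 and 783 at S3 without Mst1KO S3 replicate 5, and 174 and 1649 at most. A mean over several clusters of a symbol was not run, since each member has 1.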
